A study of Mus musculus with 12 samples.

Results

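Venus-high follicular helper T cells were compared with PD1-low T helper cells, both from lymph nodes of immunized mice. The comparison used 5 of the 12 arrays of the study (3 Venus-high and 2 PD1-low), chosen by the sample titles. Whether the 2 populations came from the same pools was not given in the sources used here. Every array held RNA from pooled mice that carried 1 Venus reporter allele at S1pr2 (S1pr2V/+) and had received CGG in CFA under the skin 10 days before the sort. Age, sex and strain were not given in the sources used here. Venus-high Tfh cells were sorted as CD4+ cells with high Venus, PD1 and CD44 that carried CXCR5 (CXCR5+) and were negative for the dump stain, from pools of 4, 6 and 4 mice. PD1-low Th cells were sorted as CD4+ CXCR5-low PD1-low CD44-high and negative for the same stain, from pools of 6 and 4 mice, with no gate on Venus named. The other arrays held Venus-low Tfh (3), CXCR5+ PD1-intermediate Th (2) and splenic CD44-low CD62L-high naive CD4 T cells (2). They helped to estimate the spread, and their levels are given for orientation. The labels give the naive cells the same immunized donors, while the series design also mentions control mice.

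Follicular helper T (Tfh) cells enter B cell follicles through CXCR5, a receptor for the follicular chemokine CXCL13, and deliver IL-21, IL-4 and CD40 ligand to B cells of the germinal centre. BCL6 is the transcription factor that defines them, and PD1 and ICOS are receptors they carry at high density. S1PR2, a sphingosine-1-phosphate receptor that restrains migration, keeps cells inside the germinal centre. Other activated CD4 T cells stay in the T cell zone or leave the node, guided by CCR7 and S1PR1.

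The marker genes set the Venus-high Tfh arrays apart from the PD1-low Th arrays. Il4 was at 11.39, 11.54 and 12.51 on the Venus-high arrays and 2.01 and 2.22 on the PD1-low arrays, in log2 signal, the scale of every level below. Il21 was at 10.71, 11.63 and 12.61 on the Venus-high arrays and 2.39 and 2.68 on the PD1-low arrays. Ccr7 was at 3.46, 3.74 and 3.91 on the Venus-high arrays and 13.07 and 13.41 on the PD1-low arrays. For these genes the groups were far apart: the 2 cytokines were near the lowest values of the array in PD1-low cells, and Ccr7 was near them in Venus-high cells. Naive cells had Il4 at 3.03 and 2.01, Il21 at 2.68 and 2.39 and Ccr7 at 13.21 and 13.36. Il4, Il21 and Ccr7 therefore do not set PD1-low Th cells apart from naive cells. Cxcr5, Pdcd1 and S1pr2, which encode or drive what was sorted on, were also higher in Venus-high cells and so check the sort, with no further meaning as a result. Cxcr5 was at 14.27, 14.26 and 14.28 on the Venus-high arrays and 5.18 and 6.75 on the PD1-low arrays, Pdcd1 at 14.52, 14.87 and 14.83 on the Venus-high arrays and 6.83 and 7.35 on the PD1-low arrays, and S1pr2 at 13.09, 12.58 and 12.99 on the Venus-high arrays and 7.58 and 7.23 on the PD1-low arrays. Cd44, on which both populations were gated high, was at 11.38, 12.77 and 13.48 on the Venus-high arrays and 11.37 and 12.18 on the PD1-low arrays (0.77 ± 0.66, adjusted p = 0.636 by limma), against a mean of 7.01 in naive cells. With the set of arrays described next as a term in the fit, Cd44 was called higher in Venus-high cells (1.24 ± 0.16, adjusted p = 0.0011). Cd4 was at 13.53, 13.97 and 14.35 on the Venus-high arrays and 13.61 and 14.12 on the PD1-low arrays.

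**Figure D1:**
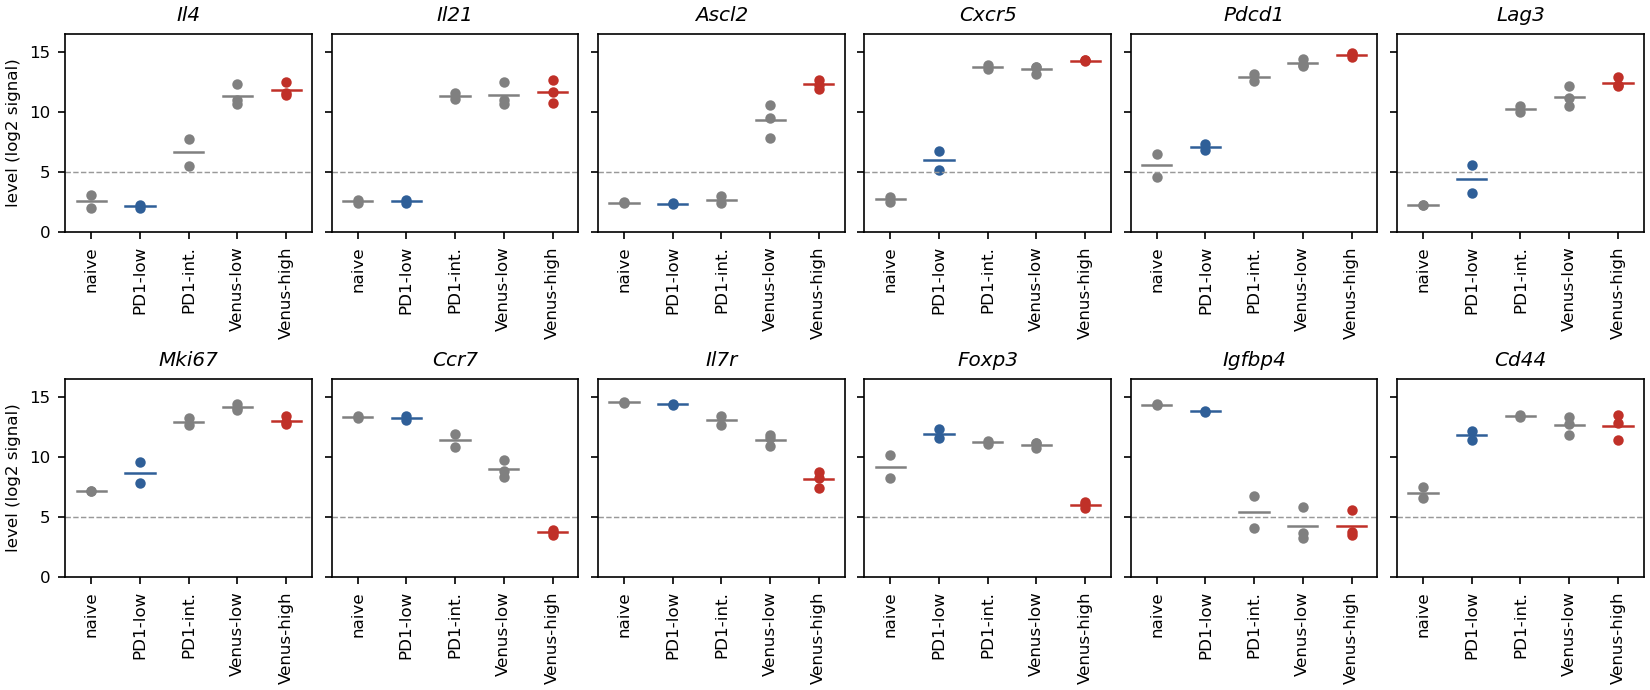
Log2 signal of 12 genes (vertical axis) on all 12 arrays by sorted group, 1 point per array with a line at the group mean and a dashed line at log2 5; red is Venus-high, blue PD1-low, grey the other groups. Il4, Il21, Ascl2, Cxcr5, Pdcd1 and Lag3 were high on every Venus-high array, and Ccr7, Il7r, Foxp3 and Igfbp4 on both PD1-low arrays.

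The arrays fell into 3 sets by the quantiles of their values, with 75% quantiles of 8.50 to 8.55, 8.68 to 8.76 and 9.39 to 9.42. Venus-high 2 and PD1-low 1 (pools of 6 mice) lay in the second set and Venus-high 3 and PD1-low 2 (pools of 4 mice) in the third, so each PD1-low array had a Venus-high partner within its set. Venus-high 1 lay in the first set, which held no PD1-low array. Some probe sets were displaced as a whole in 1 set, by more than 3 log2 units against both others, and stood for 698 of the 9893 genes tested; none of the genes called below was one of them. Because each array is a pool and nothing further is said of how pools were formed, p-values measure the spread between these arrays, and only 2 PD1-low arrays limit the precision.

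Across the 9893 genes, 1115 (11.3%) differed between Venus-high and PD1-low cells at an adjusted p under 0.05 by limma, 627 higher (6.34%) and 488 lower (4.93%) in Venus-high cells. All 1115 had 5 arrays that did not overlap between the groups. Their differences also had 1 sign within both array sets that held the 2 groups. Among all 9893 genes, called or not, the arrays did not overlap for 1429 that were higher and 1499 that were lower in Venus-high cells. With the array set as a term in the fit, 1881 genes (19.0%) were higher and 1547 (15.6%) lower, and these included all 1115 in the same direction. The median difference of the genes called higher was 3.23 log2 units, and 334 of the 627 reached 3 or more. Genes called lower had a median of -2.44, and 185 of the 488 fell by 3 or more. In 234 of the 627, both PD1-low arrays were under log2 5, and in 119 of the 488 all 3 Venus-high arrays were. Log2 5 was used as a floor, and a fold against a group wholly under it is given as a lower bound, from the other group's mean. The median over all genes was -0.10, or 0.01 with the array set term and 0.02 after quantile normalization. The shares of all genes above are the background for the counts of list members below. The lists were chosen with earlier results of these data known, so these counts describe the lists and do not test them. Leaving out PD1-low 1 lowered the count to 619 and leaving out PD1-low 2 lowered it to 715. Where leaving out 1 array ended the call of a gene named below, the adjusted p without that array follows its own. In RNA of sorted pools, fewer cells that express a gene and less RNA per cell cannot be told apart.

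**Figure D2:**
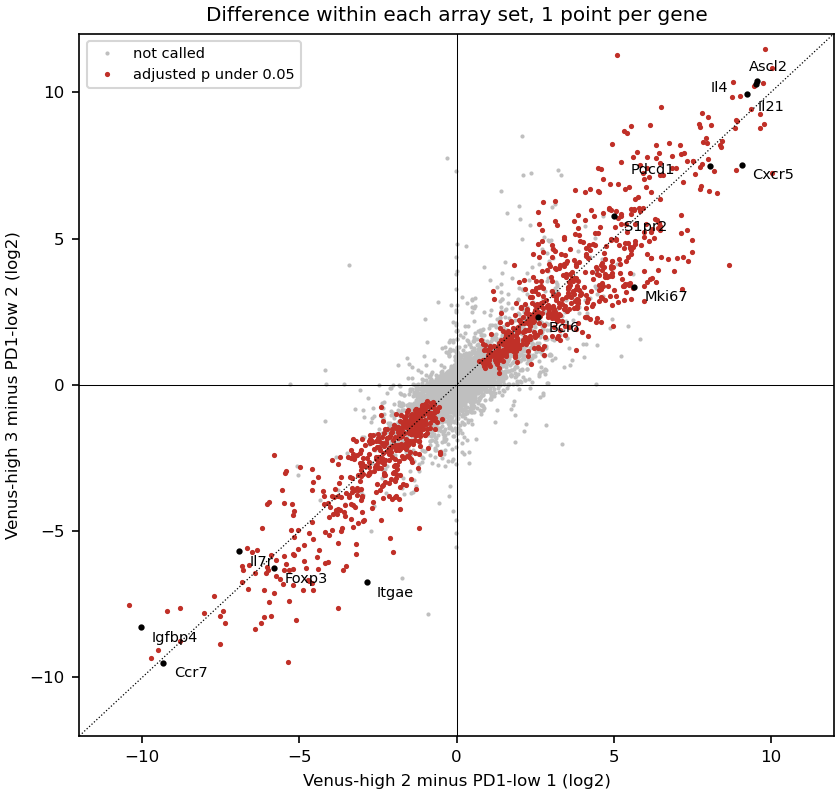
Difference in log2 signal between Venus-high 2 and PD1-low 1 (horizontal axis) and between Venus-high 3 and PD1-low 2 (vertical axis), 1 point per gene tested that was not displaced; red points passed an adjusted p under 0.05, black points are genes labelled by name, and the dotted line marks equal differences. The 1115 red points lie to the upper right and lower left only, with Ascl2, Il4 and Il21 at one end and Ccr7 and Igfbp4 at the other, while Itgae lies off the line.

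Cytokines of B cell help were higher in Venus-high cells. Of 6 measured genes of Tfh cytokines and B cell help, 4 passed the test as higher in Venus-high cells and none as lower, and all 6 were higher with the array set term; their median difference was 2.91. Il4, the switch factor for IgG1 and IgE, stood at least 112-fold above the floor level of PD1-low cells (adjusted p = 6.42e-05) and Il21, which drives germinal centre B and plasma cell growth, at least 100.3-fold (adjusted p = 4.14e-05). PD1-intermediate cells already had Il21 at a mean of 11.34, while their Il4 mean was 6.62. Tnfsf8, which encodes CD30 ligand, was at 10.87, 10.002 and 10.78 on the Venus-high arrays and 6.20 and 6.63 on the PD1-low arrays (4.13 ± 0.49, adjusted p = 7.64e-04). Icos, the costimulatory receptor that sustains Tfh cells, was at 14.73, 14.74 and 14.89 on the Venus-high arrays and 12.47 and 13.72 on the PD1-low arrays, a difference of 1.69 ± 0.35 (adjusted p = 0.0147; 0.0836 without PD1-low 1). Cd40lg did not pass, with levels of 5.31, 7.34 and 9.61 on the Venus-high arrays and 6.79 and 7.44 on the PD1-low arrays that followed the array sets (0.30 ± 1.42, adjusted p = 0.946). With the array set term, Cd40lg was called higher in Venus-high cells (1.34 ± 0.35, adjusted p = 0.0228).

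The promoter windows of Il4 and Il21 are shown because these cytokines define help to B cells and were near the lowest array values in PD1-low cells. They run from 250 bases before to 50 after the start of transcription, from RefSeq on build GRCm38.p6, at chr11:53618616-53618915 and chr3:37232587-37232886, both on the minus strand. Capitals mark the letters GGAAA, the core that NFAT proteins bind, on either strand (GGAAA or TTTCC).
Il4: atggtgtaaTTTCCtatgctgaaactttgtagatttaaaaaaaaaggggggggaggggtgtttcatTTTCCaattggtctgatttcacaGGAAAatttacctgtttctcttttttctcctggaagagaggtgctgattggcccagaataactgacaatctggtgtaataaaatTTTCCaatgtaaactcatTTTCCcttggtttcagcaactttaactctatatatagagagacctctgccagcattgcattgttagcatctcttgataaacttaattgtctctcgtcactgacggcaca
Il21: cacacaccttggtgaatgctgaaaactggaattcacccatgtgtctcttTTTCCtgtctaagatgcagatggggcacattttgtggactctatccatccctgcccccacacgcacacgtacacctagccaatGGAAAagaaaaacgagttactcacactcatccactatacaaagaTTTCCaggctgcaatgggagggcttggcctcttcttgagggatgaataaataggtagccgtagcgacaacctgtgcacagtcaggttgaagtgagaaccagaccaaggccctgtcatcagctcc
The Il4 window held 5 matches and the Il21 window 3. At least 1 match was present in 61.3% of 32851 promoters of this length, in 56.9% of those of genes called higher and in 59.9% of those of genes called lower (861 of the 1115 genes had a window). A match is only a description of the letters.

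Transcription regulators of the Tfh program that passed were higher in Venus-high cells, with 1 exception. In this list 9 of 19 measured genes passed the test as higher and 1 as lower (11 higher and 1 lower with the array set term), with a median difference of 1.95. Ascl2, a basic helix-loop-helix factor that induces Cxcr5, was at 12.23, 11.91 and 12.68 on the Venus-high arrays and 2.35 and 2.30 on the PD1-low arrays. It was at least 155-fold higher (adjusted p = 3.11e-05), with means of 9.30 in Venus-low and 2.66 in PD1-intermediate cells. Cebpa, better known as a myeloid regulator, was at 12.50, 14.02 and 13.92 on the Venus-high arrays and 3.98 and 3.10 on the PD1-low arrays. It was at least 357-fold higher (adjusted p = 4.88e-05), with means of 12.66 in Venus-low and 11.84 in PD1-intermediate cells. Bcl6 was measured in both populations, at 14.93, 14.79 and 14.75 on the Venus-high arrays and 12.20 and 12.44 on the PD1-low arrays. Its difference of 2.50 ± 0.24 (5.67-fold, adjusted p = 2.16e-04) exceeded the spread within either group. Pou2af1, the coactivator OBF1, differed by 3.31 ± 0.44 (adjusted p = 0.00149) and Bhlhe40 by 4.66 ± 0.88 (adjusted p = 0.00929; 0.0915 without PD1-low 1). Maf, a regulator of Il4 and Il21, differed by 3.15 ± 0.56 (adjusted p = 0.00709) and Batf, an AP-1 factor required for Tfh cells, by 2.01 ± 0.47 (adjusted p = 0.0249; 0.0584 without Venus-high 2, 0.0645 without Venus-high 3 and 0.204 without PD1-low 1). Lef1, which is high in naive T cells, was the member that fell, at 10.90, 11.50 and 12.20 on the Venus-high arrays and 13.15 and 13.50 on the PD1-low arrays (-1.79 ± 0.48, adjusted p = 0.044; 0.116 without Venus-high 1, 0.112 without Venus-high 2, 0.141 without PD1-low 1 and 0.227 without PD1-low 2).

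Surface and signalling genes of Tfh cells showed a similar count: 9 of 16 measured genes passed the test as higher and 0 as lower (11 higher and 1 lower with the array set term). Lag3, an inhibitory receptor for MHC class II, was at 12.24, 12.10 and 12.93 on the Venus-high arrays and 3.21 and 5.59 on the PD1-low arrays (8.02 ± 0.70, adjusted p = 1.34e-04). Sostdc1, a secreted antagonist of BMP and WNT signals, was at 10.69, 11.67 and 12.65 on the Venus-high arrays and 3.83 and 4.35 on the PD1-low arrays, at least 102-fold higher (adjusted p = 1.75e-04). Rgs16, which shortens signalling through chemokine receptors, differed by 6.47 ± 0.58 (adjusted p = 1.62e-04), and its means in PD1-intermediate and naive cells were 4.36 and 2.94. Cd160, a receptor for the TNF family member HVEM, differed by 5.18 ± 0.53 (adjusted p = 3.17e-04). Btla, which binds the same ligand, differed by 0.88 ± 0.23 (adjusted p = 0.038; 0.0595 without Venus-high 1, 0.0962 without Venus-high 2, 0.0862 without Venus-high 3, 0.254 without PD1-low 1 and 0.0732 without PD1-low 2). Nt5e, the ecto-nucleotidase CD73, differed by 2.60 ± 0.70 (adjusted p = 0.0463; 0.103 without Venus-high 2, 0.106 without Venus-high 3 and 0.329 without PD1-low 1). P2rx7, an ATP-gated channel, differed by 2.22 ± 0.59 (adjusted p = 0.0456; 0.0688 without Venus-high 1, 0.104 without Venus-high 2, 0.109 without Venus-high 3 and 0.249 without PD1-low 1). Among 11 measured inhibitory receptors and ligands, Lag3, Pdcd1, Cd160 and Btla rose and Cd96 fell (-1.54 ± 0.31, adjusted p = 0.0134; 0.112 without PD1-low 2). Tnfsf14, which encodes LIGHT, was at 10.82, 11.85 and 12.25 on the Venus-high arrays and 4.71 and 6.44 on the PD1-low arrays and led the costimulatory list (6.07 ± 0.59, adjusted p = 2.43e-04), in which 4 of 13 measured genes passed the test as higher and 0 as lower (higher: 2 without PD1-low 1; lower: 1 without Venus-high 3).

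Of 8 measured cytokines outside the B cell help list, 3 were higher and 0 lower (3 higher and 2 lower with the array set term; lower: 1 without PD1-low 1). Ifng, the Th1 cytokine, was at 7.43, 8.22 and 11.21 on the Venus-high arrays and 2.81 and 2.59 on the PD1-low arrays, at least 15.5-fold higher (adjusted p = 0.00567). The highest Ifng level was on Venus-high 3 and the lowest of the group on Venus-high 1, yet all 3 lay above both PD1-low arrays. Csf1, the macrophage growth factor, was at 9.49, 9.94 and 11.06 on the Venus-high arrays and 2.61 and 5.77 on the PD1-low arrays (5.97 ± 0.92, adjusted p = 0.00323). Tnfsf11, which encodes RANK ligand, was at 10.29, 11.66 and 12.44 on the Venus-high arrays and 7.01 and 9.07 on the PD1-low arrays (3.42 ± 0.89, adjusted p = 0.0408; 0.109 without Venus-high 2, 0.0999 without Venus-high 3 and 0.298 without PD1-low 1).

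Receptors that hold T cells in the T zone or let them leave the node were mostly lower in Venus-high cells. In the T zone homing and egress list 1 of 12 measured genes passed the test as higher and 7 as lower (2 higher and 10 lower with the array set term), with a median difference of -1.93. Ccr7, the receptor for the T zone chemokines CCL19 and CCL21, was at least 303-fold lower (adjusted p = 5.55e-06); its group means ran 13.28 in naive, 13.24 in PD1-low, 11.36 in PD1-intermediate, 8.94 in Venus-low and 3.71 in Venus-high cells. S1pr1, the receptor for exit into lymph, was at 2.13, 2.75 and 2.62 on the Venus-high arrays and 9.37 and 9.61 on the PD1-low arrays, at least 22.5-fold lower (adjusted p = 2.05e-04). Klf2, the factor that maintains S1pr1, was at 4.51, 2.99 and 4.92 on the Venus-high arrays and 9.59 and 11.07 on the PD1-low arrays, at least 40.3-fold lower (adjusted p = 0.00133). Selplg, the selectin ligand PSGL-1, was lower by a difference of -2.28 ± 0.47 (adjusted p = 0.0139; 0.0748 without PD1-low 1 and 0.0891 without PD1-low 2), and Itgb7, a gut homing integrin chain, by one of -1.58 ± 0.19 (adjusted p = 7.59e-04). Itgal, the LFA-1 chain, was the member that rose (1.17 ± 0.25, adjusted p = 0.0178; 0.148 without PD1-low 1). Cnr2, the cannabinoid receptor CB2, a member of the follicle positioning list, fell and was at 3.83, 5.32 and 5.79 on the Venus-high arrays and 7.68 and 8.28 on the PD1-low arrays (adjusted p = 0.00738; 0.0662 without PD1-low 2). Cxcr6, a chemokine receptor of effector T cells, was at 11.14, 10.46 and 11.84 on the Venus-high arrays and 3.27 and 7.48 on the PD1-low arrays (5.77 ± 1.01, adjusted p = 0.00635), with PD1-low 2 well above PD1-low 1.

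Genes of naive and quiescent T cells made up the other large fall. None of 19 measured genes was higher and 11 were lower (13 with the array set term), with a median difference of -2.88. Igfbp4, an IGF-binding protein, was at 3.46, 3.73 and 5.55 on the Venus-high arrays and 13.76 and 13.83 on the PD1-low arrays (-9.55 ± 0.99, adjusted p = 3.46e-04). Dapl1 was at 8.16, 4.02 and 7.35 on the Venus-high arrays and 14.43 and 14.87 on the PD1-low arrays (-8.14 ± 1.09, adjusted p = 0.0015). Il7r, the IL-7 receptor chain that supports survival, was at 8.23, 7.42 and 8.73 on the Venus-high arrays and 14.35 and 14.42 on the PD1-low arrays, a difference of -6.26 ± 0.43 (76.4-fold lower, adjusted p = 3.52e-05). Satb1, a chromatin organizer, differed by -2.88 ± 0.35 (adjusted p = 8.32e-04), and Bach2, a repressor of effector genes, by -4.74 ± 1.09 (adjusted p = 0.024; 0.0642 without PD1-low 1 and 0.172 without PD1-low 2). Txk, a TEC family kinase, was at least 28.9-fold lower (adjusted p = 0.00385). The PD1-low arrays lay close to naive cells on this list: the group means were within 1 log2 unit of each other for 19 of the 19 genes, against 7 of 19 for Venus-high cells. The mean level over the list was 12.32 to 12.99 in PD1-low, 12.55 to 12.57 in naive and 8.60 to 9.57 in Venus-high cells. Cd44, at the levels given above, set the PD1-low arrays apart from the naive ones. How far the naive profile of the PD1-low arrays enters these falls was not tested.

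**Figure D3:**
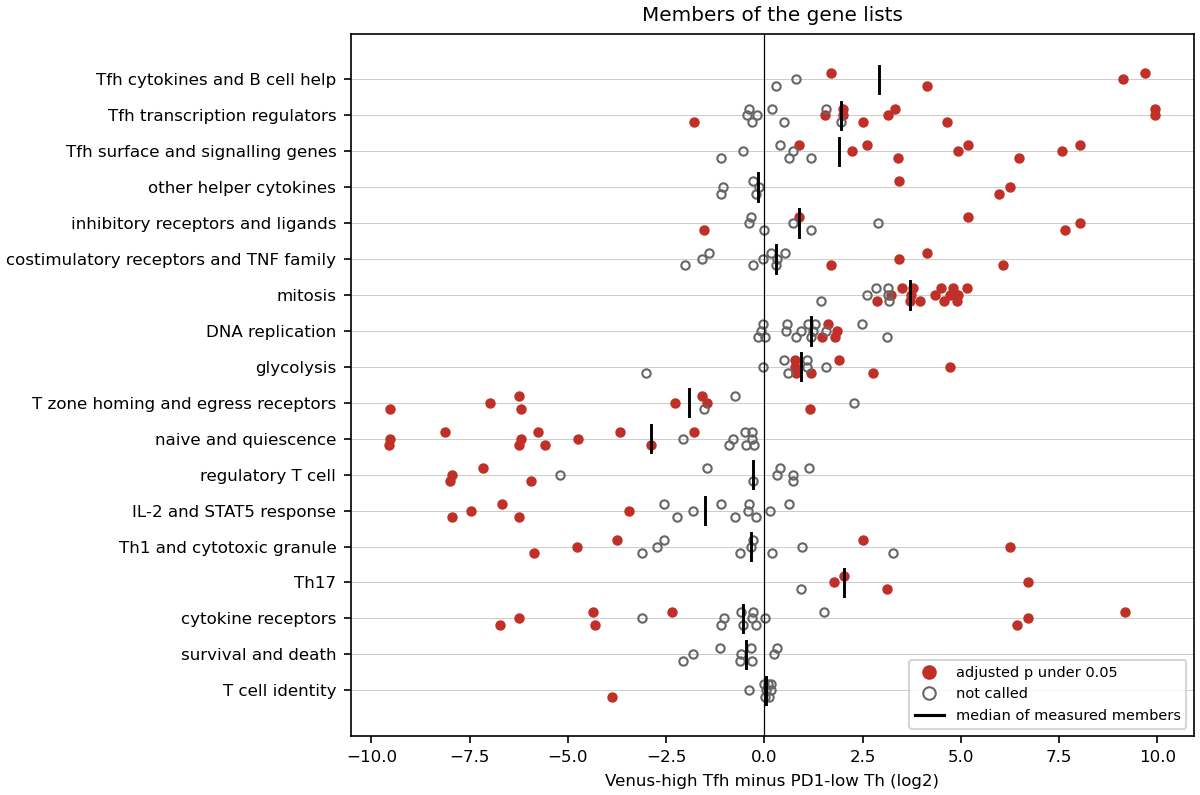
Venus-high minus PD1-low difference in log2 signal (horizontal axis) for the measured, not displaced members of 18 gene lists, 1 point per gene, filled red where the adjusted p was under 0.05, with a black bar at the median over all measured members. The mitosis and Tfh lists lie to the right and the T zone and naive lists to the left, while the T cell identity list sits near 0 except for Trat1.

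Regulatory T cell genes were lower in Venus-high cells where they passed: 0 of 13 measured genes passed the test as higher and 4 as lower (2 higher and 5 lower with the array set term), with a median of -0.30. Foxp3, the factor that defines regulatory T cells, was at 6.19, 5.73 and 6.07 on the Venus-high arrays and 11.52 and 12.34 on the PD1-low arrays, a difference of -5.94 ± 0.52 (61.2-fold lower, adjusted p = 1.34e-04). Its means were 10.999 in Venus-low, 11.19 in PD1-intermediate, 9.18 in naive and 5.996 in Venus-high cells, the lowest of the 5 groups. Ikzf4, which encodes Eos, a partner of FOXP3, was at 2.25, 3.61 and 4.47 on the Venus-high arrays and 9.76 and 11.48 on the PD1-low arrays, at least 49-fold lower (adjusted p = 0.00237). Gpr83, a receptor found on regulatory T cells, was at 4.84, 3.10 and 5.27 on the Venus-high arrays and 11.91 and 12.91 on the PD1-low arrays (-8.01 ± 0.63, adjusted p = 7.68e-05). Il2ra, the high-affinity IL-2 receptor chain, was at 3.65, 3.90 and 4.83 on the Venus-high arrays and 11.43 and 12.73 on the PD1-low arrays, at least 135-fold lower (adjusted p = 0.00223). The mean level over the 12 genes not displaced was 8.14 to 9.07 in Venus-high, 10.25 to 12.16 in PD1-low and 8.01 to 8.21 in naive cells. The gates named no marker of regulatory T cells, and the part that their share of each sort plays in these values was not tested.

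Among genes induced by IL-2 through STAT5, 5 of 16 were lower, 0 higher and 11 did not pass (1 higher and 8 lower with the array set term; median -1.52). Socs2, a feedback inhibitor induced by STAT5, was at 2.67, 3.36 and 2.23 on the Venus-high arrays and 8.73 and 11.72 on the PD1-low arrays, at least 37.5-fold lower (adjusted p = 0.00213). Cish, another such inhibitor, was at 3.39, 2.72 and 4.72 on the Venus-high arrays and 9.53 and 11.05 on the PD1-low arrays, at least 39.2-fold lower (adjusted p = 7.17e-04). Regulatory T cells carry several of these genes too, among them Il2ra.

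Regulators and receptors of the other helper lineages moved less uniformly. Among 13 lineage regulators, Rora rose while Foxp3, Ikzf4, Runx3 and Eomes fell. Runx3, a factor of Th1 and CD8 T cells, was at 4.64, 4.88 and 4.63 on the Venus-high arrays and 10.21 and 10.95 on the PD1-low arrays, at least 47.8-fold lower (adjusted p = 2.01e-05), and its mean was 10.11 in Venus-low cells. Eomes, a T-box factor of cytotoxic cells, was at 2.36, 2.40 and 2.86 on the Venus-high arrays and 4.52 and 8.09 on the PD1-low arrays (adjusted p = 0.0317; 0.0821 without Venus-high 1, 0.0873 without Venus-high 2, 0.0584 without Venus-high 3 and 0.149 without PD1-low 2). In the Th1 and cytotoxic granule list 2 of 15 measured genes passed the test as higher and 3 as lower (3 higher and 4 lower with the array set term; higher: 1 without PD1-low 1; lower: 1 without Venus-high 2 and 1 without PD1-low 2). Ifng and Gzma were higher and Runx3, Eomes and Ctsw lower. Runx3 and Ctsw were high in naive cells too, at 10.92 and 10.66 and at 11.87 and 12.79. Eomes was not, at 2.49 and 2.67 in naive cells. Gzma, a granule protease, was at 7.72, 7.06 and 7.58 on the Venus-high arrays and 4.69 and 5.19 on the PD1-low arrays (2.52 ± 0.52, adjusted p = 0.0149; 0.117 without PD1-low 1 and 0.0546 without PD1-low 2). Ctsw, a protease of cytotoxic cells, was at 7.16, 7.52 and 10.34 on the Venus-high arrays and 12.94 and 13.28 on the PD1-low arrays (-4.77 ± 1.02, adjusted p = 0.017; 0.0583 without Venus-high 2, 0.0874 without PD1-low 1 and 0.102 without PD1-low 2). Of the Th17 list, 4 of 5 measured genes were higher (2 without Venus-high 3 and 1 without PD1-low 1). Il1r1, the signalling IL-1 receptor, was at 7.19, 9.51 and 10.68 on the Venus-high arrays and 2.40 and 2.47 on the PD1-low arrays, at least 17.5-fold higher (adjusted p = 0.00392). Rora, a nuclear receptor of Th17 cells, was at 10.17, 10.20 and 11.33 on the Venus-high arrays and 6.42 and 8.46 on the PD1-low arrays (3.12 ± 0.60, adjusted p = 0.00982; 0.0634 without PD1-low 1). Tmem176a and Tmem176b differed by 1.78 ± 0.39 and 2.02 ± 0.48 (adjusted p = 0.0186; 0.0519 without Venus-high 2, 0.0506 without Venus-high 3, 0.107 without PD1-low 1 and 0.0953 without PD1-low 2 for the first and adjusted p = 0.0283; 0.0771 without Venus-high 1, 0.0654 without Venus-high 3, 0.189 without PD1-low 1 and 0.0864 without PD1-low 2 for the second). In the Th2 list Il4 rose and Il4ra, the IL-4 receptor chain, fell. Il4ra was at 7.36, 7.78 and 8.54 on the Venus-high arrays and 12.36 and 12.14 on the PD1-low arrays (-4.36 ± 0.34, adjusted p = 7.00e-05), so Il4 and Il4ra moved in opposite directions. Il13ra1, also a chain of an IL-4 receptor, rose, as given below. Gata3, the Th2 regulator, was at 11.07, 10.70 and 10.76 on the Venus-high arrays and 10.38 and 10.70 on the PD1-low arrays (0.30 ± 0.21, adjusted p = 0.525).

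Cytokine receptors split in both directions: 3 of 19 measured genes passed the test as higher and 5 as lower (4 higher and 7 lower with the array set term). Il1r2, the decoy IL-1 receptor, was at 11.41, 11.90 and 12.06 on the Venus-high arrays and 2.12 and 3.13 on the PD1-low arrays. It was at least 110.4-fold higher (adjusted p = 7.52e-06), with means of 11.84 in Venus-low and 11.44 in PD1-intermediate cells. Il13ra1, a chain of the IL-13 receptor and of an IL-4 receptor, was at 7.82, 8.42 and 10.15 on the Venus-high arrays and 2.37 and 2.37 on the PD1-low arrays. It was at least 13.9-fold higher (adjusted p = 0.00133), while the means of the other 4 groups were under log2 4. Il13ra1 reached log2 5 only on Venus-high arrays, so it could be called only as higher. Acvrl1, the BMP and TGF-beta family receptor ALK1, was at 2.18, 2.34 and 2.22 on the Venus-high arrays and 8.31 and 9.62 on the PD1-low arrays, at least 15.6-fold lower (adjusted p = 9.57e-06). Both IFN-gamma receptor chains fell, Ifngr1 by a difference of -2.36 ± 0.53 (adjusted p = 0.0209; 0.0709 without Venus-high 2 and 0.136 without PD1-low 2) and Ifngr2 by at least 5.32-fold (adjusted p = 0.0341; 0.0971 without Venus-high 1, 0.0803 without Venus-high 3 and 0.265 without PD1-low 1).

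Cell division genes were higher in Venus-high cells. Of 22 measured mitosis genes, 15 were higher and 0 lower, with a median difference of 3.71 (21 higher with the array set term; 9 without Venus-high 2 and 7 without PD1-low 1). Cdk1, the kinase that starts mitosis, was at 8.72, 9.74 and 9.85 on the Venus-high arrays and 3.01 and 5.56 on the PD1-low arrays (5.15 ± 0.74, adjusted p = 0.00213). Bub1, a spindle checkpoint kinase, was at 7.44, 8.58 and 8.89 on the Venus-high arrays and 3.36 and 3.39 on the PD1-low arrays, at least 9.88-fold higher (adjusted p = 0.00101), and Cenpf, a kinetochore protein, at least 5.93-fold (adjusted p = 3.81e-04). Ccnb2, a mitotic cyclin, differed by 4.80 ± 0.66 (adjusted p = 0.00172). Mki67, the proliferation antigen Ki-67, was at 12.70, 13.43 and 12.90 on the Venus-high arrays and 7.77 and 9.55 on the PD1-low arrays (4.35 ± 0.48, adjusted p = 5.43e-04). Venus-high cells did not have the highest level of this list, though the other groups were not tested here: its mean level was 7.60 to 9.31 there, 10.06 to 11.88 in Venus-low, 8.78 to 9.62 in PD1-intermediate, 4.30 to 5.56 in PD1-low and 3.95 to 4.31 in naive cells. Of 19 measured DNA replication genes, 4 were higher and none lower (1 without Venus-high 2, 1 without Venus-high 3 and 0 without PD1-low 1; 13 with the array set term; median 1.19). Mcm6, part of the replicative helicase, was at 13.30, 13.14 and 13.62 on the Venus-high arrays and 11.61 and 12.17 on the PD1-low arrays (1.46 ± 0.29, adjusted p = 0.0118; 0.111 without PD1-low 1).

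Glycolysis genes were higher in 7 of 14 cases and lower in none (10 higher and 1 lower with the array set term; higher: 4 without Venus-high 1, 4 without Venus-high 2, 3 without PD1-low 1 and 4 without PD1-low 2; lower: 1 without Venus-high 3). Slc16a3, a lactate exporter, was at 9.12, 9.06 and 9.84 on the Venus-high arrays and 5.19 and 4.05 on the PD1-low arrays (4.72 ± 0.62, adjusted p = 0.00136). Tpi1, triosephosphate isomerase, was at 13.68, 13.36 and 13.86 on the Venus-high arrays and 10.69 and 11.05 on the PD1-low arrays (2.76 ± 0.32, adjusted p = 7.17e-04). Pfkl, a phosphofructokinase chain, differed by 1.90 ± 0.28 (adjusted p = 0.00246). Of 13 measured cholesterol and lipoprotein genes, 3 were higher. Apoe, the apolipoprotein, was at 7.26, 8.66 and 11.56 on the Venus-high arrays and 2.15 and 2.06 on the PD1-low arrays, at least 17.9-fold higher (adjusted p = 0.0018). Its genomic neighbour Apoc4 was at 7.33, 7.67 and 10.94 on the Venus-high arrays and 2.13 and 2.08 on the PD1-low arrays, at least 12.5-fold higher (adjusted p = 0.00158). Both ran from lowest on Venus-high 1 to highest on Venus-high 3, and the means of the other 4 groups lay under log2 3. Apoe and Apoc4 reached log2 5 only on Venus-high arrays. The filter kept them through that group, so they could be called only as higher.

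Many of the largest rises lay outside these lists. Of genes with both PD1-low arrays under log2 5, the largest bounds belonged to Cebpa, Padi4, Gal, Vdr, Cxxc5, Cd22, Asb2 and Ascl2. Padi4, which converts arginine in proteins to citrulline, was at 13.73, 13.08 and 13.01 on the Venus-high arrays and 3.62 and 2.79 on the PD1-low arrays, at least 309.6-fold higher (adjusted p = 4.90e-05). Gal, the neuropeptide galanin, was at 13.24, 12.45 and 13.62 on the Venus-high arrays and 2.64 and 2.14 on the PD1-low arrays, at least 275-fold higher (adjusted p = 3.57e-04). Gal was graded among the follicular cells, with means of 8.77 in Venus-low and 2.14 in PD1-intermediate cells. Vdr, the vitamin D receptor, was at 12.76, 13.50 and 12.96 on the Venus-high arrays and 3.74 and 2.66 on the PD1-low arrays, at least 269-fold higher (adjusted p = 3.00e-06). Cxxc5, a CXXC zinc finger protein, was at 12.49, 12.68 and 12.996 on the Venus-high arrays and 4.89 and 3.70 on the PD1-low arrays, at least 211-fold higher (adjusted p = 2.30e-04). Asb2, a ubiquitin ligase adaptor, was at 12.35, 12.26 and 12.72 on the Venus-high arrays and 2.61 and 3.48 on the PD1-low arrays. It was at least 174-fold higher (adjusted p = 9.74e-06), with means of 11.18 in Venus-low and 10.82 in PD1-intermediate cells. The rule that named these genes required log2 5 or more on all 3 Venus-high arrays and no overlap. Of genes measured on all 5 arrays, the largest rises beside the gate genes were Egln3, Abhd4, Cacna1d, Dusp16 and Stx11. Egln3, an oxygen-sensing prolyl hydroxylase, was at 12.65, 12.86 and 13.12 on the Venus-high arrays and 5.29 and 5.91 on the PD1-low arrays (7.28 ± 0.29, adjusted p = 1.63e-06). Its means were 11.66 in Venus-low and 11.61 in PD1-intermediate cells. Abhd4, a lipid hydrolase, was at 12.25, 11.59 and 12.78 on the Venus-high arrays and 5.38 and 7.47 on the PD1-low arrays (5.79 ± 0.80, adjusted p = 0.00181). Cacna1d, a voltage-gated calcium channel, was at 10.67, 10.85 and 12.51 on the Venus-high arrays and 5.51 and 5.81 on the PD1-low arrays (5.69 ± 0.51, adjusted p = 1.66e-04). Dusp16, a phosphatase of MAP kinases, differed by 5.34 ± 0.61 (adjusted p = 6.42e-04) and Stx11, a syntaxin of granule release, by 5.20 ± 0.63 (adjusted p = 8.70e-04).

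**Figure D4:**
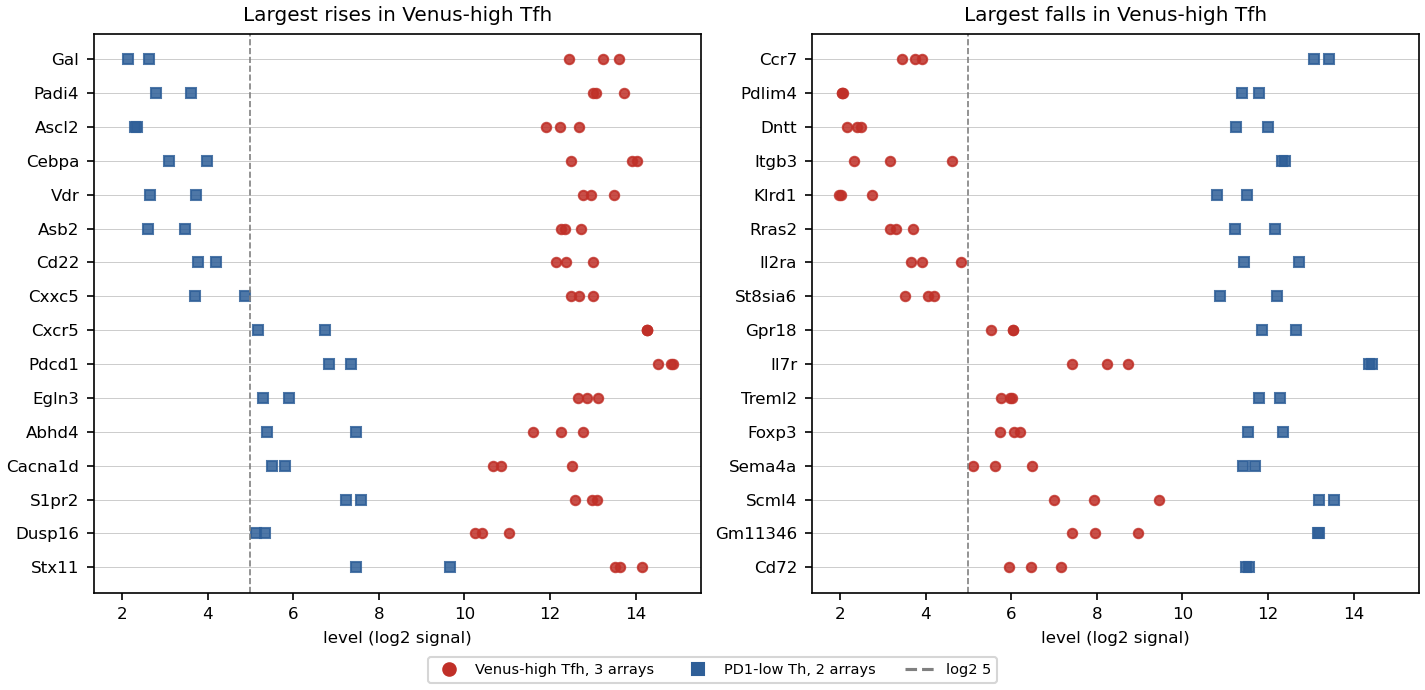
Log2 signal (horizontal axis) of the genes with the largest rises (left) and falls (right) in Venus-high against PD1-low cells, 1 red point per Venus-high array and 1 blue square per PD1-low array, with a dashed line at log2 5. In each row the red points and blue squares do not overlap, which the choice of genes required. The upper 8 rows of each panel have 1 group wholly under log2 5.

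Among the falls with all Venus-high arrays under log2 5, the largest bounds after Ccr7 were those of Itgb3, Il2ra, Rras2, Dntt, Pdlim4, St8sia6 and Klrd1. Itgb3, the integrin beta 3 chain, was at 2.33, 3.16 and 4.61 on the Venus-high arrays and 12.39 and 12.33 on the PD1-low arrays, at least 164-fold lower (adjusted p = 3.52e-05). Dntt, the terminal transferase of developing lymphocytes, was at 2.39, 2.49 and 2.17 on the Venus-high arrays and 11.99 and 11.24 on the PD1-low arrays, at least 98.2-fold lower (adjusted p = 8.27e-06). Pdlim4, a PDZ and LIM domain protein, was at 2.05, 2.06 and 2.04 on the Venus-high arrays and 11.79 and 11.38 on the PD1-low arrays, at least 96-fold lower (adjusted p = 2.74e-07). The naive means of Itgb3, Dntt and Pdlim4 were 12.55, 10.28 and 11.58, each near the PD1-low level of that gene. Rras2, a small GTPase, was lower by at least 104-fold (adjusted p = 6.47e-04) and St8sia6, a sialyltransferase, at least 93.7-fold (adjusted p = 2.33e-04). Of genes measured on all 5 arrays, the 8 largest falls were Gpr18, Il7r, Treml2, Foxp3, Sema4a, Scml4, Gm11346 and Cd72. Gpr18, a G protein-coupled receptor, was at 6.04, 6.03 and 5.52 on the Venus-high arrays and 11.86 and 12.64 on the PD1-low arrays (-6.39 ± 0.33, adjusted p = 8.27e-06). Treml2, a receptor of the TREM family, was at 5.97, 5.76 and 6.03 on the Venus-high arrays and 11.79 and 12.27 on the PD1-low arrays (-6.12 ± 0.38, adjusted p = 2.04e-05). Sema4a, a semaphorin that acts on T cells, was at 5.62, 6.49 and 5.11 on the Venus-high arrays and 11.69 and 11.41 on the PD1-low arrays (-5.81 ± 0.50, adjusted p = 1.27e-04). Scml4 and Gm11346 differed by -5.23 ± 0.70 and -5.06 ± 0.49 (adjusted p = 0.00145 and 2.30e-04).

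The 2 array sets disagreed on the difference of some list members. Of the 286 list members not displaced, 10 had a difference in the second array set that exceeded the one in the third by more than 3 log2 units. They were Ahr, Ccr2, Ccr6, Cxcr3, Eomes, Gzmb, Itgae, Nkg7, Nusap1 and Socs2. The reverse held for 2 (Ifng and Apoc4), against 35 and 37 of 9195 genes tested. For the 10, PD1-low 2 exceeded PD1-low 1 by 2.99 (Socs2) to 6.17 (Itgae). For Ifng and Apoc4 the PD1-low arrays were close, with PD1-low 2 minus PD1-low 1 at -0.21 and -0.04. There Venus-high 3 exceeded Venus-high 2 by 2.99 and 3.26. Itgae, the integrin CD103, was at 2.31, 2.38 and 4.67 on the Venus-high arrays and 5.24 and 11.41 on the PD1-low arrays (adjusted p = 0.0713). Gzmb, a granule protease, was at 2.05, 2.06 and 2.11 on the Venus-high arrays and 2.06 and 7.18 on the PD1-low arrays. Nkg7, a granule membrane protein, was at 2.12, 2.13 and 1.80 on the Venus-high arrays and 2.13 and 7.35 on the PD1-low arrays. Ccr2, a chemokine receptor of inflammatory cells, was at 4.49, 2.19 and 2.26 on the Venus-high arrays and 3.92 and 8.86 on the PD1-low arrays. All 4 were higher on PD1-low 2 than on PD1-low 1, and none passed the test (Gzmb adjusted p = 0.498, Nkg7 0.329, Ccr2 0.382). With the array set term Itgae passed (adjusted p = 0.0048). The mitosis gene Nusap1 was at 9.16, 11.04 and 11.17 on the Venus-high arrays and 3.86 and 7.91 on the PD1-low arrays, and it passed (4.57 ± 1.12, adjusted p = 0.032; 0.097 without Venus-high 2, 0.0819 without Venus-high 3 and 0.203 without PD1-low 1). Cxcr3, Ccr6 and Ahr showed the same order, with 5.44 and 10.22, 4.73 and 9.22 and 4.65 and 8.77 on PD1-low 1 and 2. These genes were singled out after their values were seen. The array set, the pool and its size cannot be told apart as the source of this split.

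Genes of other cell types were mostly near the lowest values of the array. Of 9 T cell identity genes, 8 did not pass, and Trat1, a T cell receptor adaptor, fell (-3.87 ± 0.57, adjusted p = 0.00256). Of 10 B cell markers on the array, 5 were under log2 5 on all 5 arrays, Cd79a and Ms4a1 among them, and the mean over the list was 3.78 to 4.55 in Venus-high and no higher than 4.57 in PD1-low cells. Cd79b, the partner chain of Cd79a in the B cell receptor, was at 2.50, 3.11 and 3.99 on the Venus-high arrays and 5.83 and 8.99 on the PD1-low arrays, lower in Venus-high cells by a comparison that did not pass (adjusted p = 0.063; 0.0126 with the array set term). Cd22, an inhibitory receptor known from B cells, was at 13.01, 12.14 and 12.38 on the Venus-high arrays and 3.77 and 4.19 on the PD1-low arrays, at least 182-fold higher (adjusted p = 2.04e-05). Cd72, another such receptor, was at 7.15, 6.46 and 5.96 on the Venus-high arrays and 11.49 and 11.56 on the PD1-low arrays (-5.003 ± 0.39, adjusted p = 7.00e-05). Of 8 germinal centre B and plasma cell markers, 2 were under log2 5 on all 5 arrays, and the mean over the list was 6.97 to 8.04 in Venus-high and 5.09 to 5.52 in PD1-low cells. Beside Bcl6, which Tfh cells express themselves, Mef2b, a factor of germinal centre B cells, was at 6.39, 7.74 and 8.94 on the Venus-high arrays and 2.25 and 2.18 on the PD1-low arrays and at least 6.45-fold higher (adjusted p = 5.04e-04). Sdc1, syndecan-1, was at 7.82, 7.60 and 8.39 on the Venus-high arrays and 2.53 and 3.39 on the PD1-low arrays and at least 7.68-fold higher (adjusted p = 1.25e-04). Mef2b reached log2 5 only on Venus-high arrays, so it could be called only as higher. Of 6 measured germinal centre B and plasma cell markers, 3 passed as higher and 0 as lower (5 and 0 with the array set term). Jchain, another of them, did not pass. It was at 4.13, 7.83 and 7.43 on the Venus-high arrays and 3.43 and 4.07 on the PD1-low arrays. What B cell RNA contributes to Mef2b, Sdc1 and Jchain was not tested. Of 9 CD8, NK and gamma delta T cell markers, 7 were under log2 5 on all 5 arrays, Cd8a and Ncr1 among them. The other 2 fell in Venus-high cells: Klrd1, the NK receptor CD94, was at 2.03, 1.99 and 2.74 on the Venus-high arrays and 10.80 and 11.50 on the PD1-low arrays, at least 70.9-fold lower (adjusted p = 5.31e-05). Cd8b1 was at 2.51, 3.13 and 3.02 on the Venus-high arrays and 6.35 and 6.62 on the PD1-low arrays, at least 2.8-fold lower (adjusted p = 0.00609). Naive cells had Klrd1 at a mean of 9.59. Myeloid markers were under log2 5 on all 5 arrays for 9 of 13 genes, including Lyz2, Csf1r and Itgam, and Cd68, a lysosomal protein, was higher (3.91 ± 0.37, adjusted p = 2.08e-04).

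Signalling, interferon and survival lists had more calls with the array set term than without it, as did all genes tested (3428 against 1115). Of 22 measured early genes of T cell receptor signalling, 1 passed as higher and 2 as lower (5 higher and 6 lower with the array set term; higher: 0 without PD1-low 1; lower: 1 without Venus-high 1, 1 without Venus-high 3, 0 without PD1-low 1 and 1 without PD1-low 2). Egr2 was higher (1.70 ± 0.35, adjusted p = 0.0153; 0.129 without PD1-low 1). Ier2 and Jun were lower, Ier2 by a difference of -2.83 ± 0.52 (adjusted p = 0.00826; 0.0695 without PD1-low 1) and Jun by -1.86 ± 0.46 (adjusted p = 0.0326; 0.0795 without Venus-high 1, 0.0525 without Venus-high 3, 0.176 without PD1-low 1 and 0.127 without PD1-low 2). Egr2 restrains T cell activation, and Ier2 and Jun are immediate early genes. Of 8 SLAM receptors and adaptors, the kinase Fyn was higher (1.14 ± 0.21, adjusted p = 0.00788; 0.0659 without PD1-low 1; list 4 higher and 1 lower with the array set term). The type I interferon list gave 1 higher and 1 lower of 13 genes, counts near the background shares given above (2 higher and 4 lower with the array set term). Oas1a, an antiviral sensor enzyme, differed by 1.45 ± 0.36 (adjusted p = 0.0332; 0.0795 without Venus-high 1, 0.0815 without Venus-high 2, 0.0733 without Venus-high 3 and 0.258 without PD1-low 1). Ifit2, another interferon-induced gene, differed by -2.11 ± 0.55 (adjusted p = 0.042; 0.0644 without Venus-high 1, 0.0734 without Venus-high 2, 0.109 without PD1-low 1 and 0.245 without PD1-low 2). None of 10 survival and death genes passed by limma, and 4 were lower with the array set term. Bcl2l11, which encodes the death factor BIM, was at 9.05, 9.34 and 10.93 on the Venus-high arrays and 11.38 and 12.31 on the PD1-low arrays (-2.07 ± 0.76, adjusted p = 0.144). Bcl2, which opposes it, was at 10.50, 10.12 and 12.49 on the Venus-high arrays and 12.46 and 13.28 on the PD1-low arrays (-1.83 ± 0.72, adjusted p = 0.176).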

How the data were processed

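Each probe set of the Affymetrix mouse array has a log2 value, deposited as the authors made it with GCRMA, per the submitters' processing notes; the version and which arrays were normalized together are not given in the sources used here. RNA (20 ng per array) was amplified, per the labels' protocols. Of 45101 probe sets, 34958 had 1 gene symbol in the platform annotation, 932 several and 9211 none. The probe set with 1 symbol, log2 5 or more on at least 2 arrays and the highest mean stood for its gene (9893 genes). All 12 arrays entered 1 fit of 5 group means in limma 3.58.1 (R 4.3.3; 7 residual degrees of freedom), with 2-sided moderated tests and Benjamini-Hochberg adjustment over all genes. Values after ± are standard errors. Array sets are 3 clusters of array quantiles, and the fit with them as a term had 5 residual degrees of freedom. Data simulated from the fit with the array set term served only to check that the fits returned, on average, the sizes of changes put in. They do not check the genes called here. Figures were drawn with matplotlib 3.10.9.

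The lists, genes and tests were chosen with earlier results of these data known. The genes named are the 8 largest rises and falls among those measured in both groups, the 8 largest lower bounds each way, up to 4 members per list with the largest called difference (2 with the smallest p where none passed), the gate genes, Il4, Il21 and Ccr7; not all are printed. Cd40lg, Maf, Batf, Lef1, Btla, Nt5e, P2rx7, Selplg, Itgb7, Itgal, Satb1, Bach2, Txk, Ifngr1, Ifngr2, Mki67, Gata3, Gzma, Cd79b and the genes on which the PD1-low arrays disagreed were added with their values in view. Other settings tried varied the filter, floor, normalization, variance model, probe set, blocks, weights, fold and each array in turn.

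Equal replicate numbers of the 2 groups lay in different array sets and in pools of different size, so the main fit did not pair them. Deviations from the group means correlated at 0.86 for Venus-high 2 with PD1-low 1 and 0.76 for Venus-high 3 with PD1-low 2. Both of these pairs share an array set. For equal numbers 1 and 2 the values were -0.39 and -0.86. With only 2 PD1-low arrays, their deviations are mirror images, so -0.86 is the 0.86 with its sign turned. These correlations therefore cannot show which pools belong together.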

Additional observations from a re-analysis of the deposited data

How the results depend on the processing

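The 1115 genes called between Venus-high and PD1-low cells became 1769 after quantile normalization, 431 with only the 5 arrays of the comparison (426 of them among the 1115, in the same direction), 3428 with array set as a fixed term, 3452 with it as a random block, and 3507 with the term and displaced probe sets left out, an alternative chosen after seeing the data. Leaving out each array gave 619 to 1021 genes, with 506 higher and 209 lower without PD1-low 2. With a block for the replicate number, which pairs arrays of different sets, 2564 genes were called, 775 higher and 1789 lower. No call among the 1115 changed direction under any of the 20 alternatives. Many of these could not have changed one. Leaving out 1 array cannot, because the called genes' arrays did not overlap between the groups. Fits that kept the same group means, such as the one on the 5 arrays and the added fold threshold, cannot either. Of 113 called genes that were followed through the alternatives, 63 kept their call throughout, 50 lost it in at least 1 and 0 reversed. The fit on the 5 arrays alone ended 44 of these calls, among them Ifng, Csf1, Apoe, Apoc4, Cdk1, Ccnb2, Cxcr6, Maf and Trat1. The replicate block and the array set term ended none. Array weights ended 8 of the 113 calls: Arhgef1, Bhlhe40, Dusp16, Gzma, Ifngr2, Jun, Slc16a3 and Tmem176b. Averaging the probe sets that passed the filter ended 10: Bach2, Eomes, Fdft1, Fyn, Nt5e, Pfkl, Pfkp, Rora, Rrm2 and Satb1. Levels under log2 5 carry no order, and no detection calls were used.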
